A study of Arabidopsis thaliana with 10 samples.

Results

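Genes of vesicle traffic and secretion were followed in Arabidopsis thaliana rosettes of 3 genotypes. They were taken as the probe sets annotated with 1 gene whose symbol starts with SEC, VPS, SYP, VAMP, EXO70 or RAB and holds a number, leaving out RAB18 and RAB28, with 1 probe set per gene. This gave 21 genes of the 13355 that had a probe set of their own, each with a single probe set. The gene table lists 149 genes with such symbols, and 10 of 16 SEC genes, 10 of 29 VPS genes and 1 of 47 RAB genes were measured. The 23 SYP, 11 VAMP and 23 EXO70 genes were not analysed here. The 21 genes therefore held 6 exocyst subunits, 9 genes of the ESCRT machinery, 4 regulators of membrane fusion and identity (SEC22, SEC1B, RAB6A and VPS9B) and 2 genes, SECA2 and SECE1, whose proteins work in protein translocation inside the plastid. The name of the group thus covers 19 of the 21 genes.

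Vesicles bud from one compartment, are caught by tethering complexes at the next, and fuse there through SNARE proteins, with Rab GTPases marking which membrane is which. The exocyst is the tether that holds secretory vesicles at the plasma membrane, and in plants it serves cell wall deposition, tip growth and the formation of the cell plate. ESCRT proteins act on endosomes, where they sort ubiquitinated membrane proteins into inner vesicles for breakdown in the vacuole.

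The groups were wild-type Col 0 (n = 3 arrays), abi4-102 (n = 3) and vtc1 (n = 4), each array hybridised with biotin-labelled cRNA from whole rosettes of 42 days. ABI4 is a transcription factor of the abscisic acid response, and VTC1 makes GDP-mannose, a precursor of ascorbate and also of glycoproteins and cell wall polymers. All plants grew on compost with 8 h of light per day at 200 µmol m-2 s-1, 60% humidity and 23 °C by day and 18 °C by night, with no further treatment stated. Each mutant is represented by 1 allele, and the titles name biological replicates. Whether each came from a single plant or from pooled plants is not stated, so the p-values reflect only how these samples vary. VTC1 and ABI4 had no probe set of their own, so the genotypes were not checked through them.

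Values were the authors' linear intensities, with array medians of 42.6 to 45.6. Pearson's r over the 22746 probe sets that are not controls was 0.9972 to 0.9985 within a genotype and 0.9854 to 0.9898 between genotypes. Of 11 listed rosette leaf markers 5 were measured, and their summed intensity was 30176 to 30668 in Col 0, 26159 to 27787 in abi4-102 and 27401 to 28294 in vtc1. In that order RCA had means of 7468, 5818 and 6674, and PRK of 4146, 2606 and 3565. SBPASE had means of 3895, 3214 and 2729. LHCB4.1 had means of 9010, 8835 and 8774, and LHCB4.2 of 5908, 6334 and 6194. The 3 measured root markers summed to 40.7 to 54.8, with PYK10 at the control level on all arrays. The 2 measured guard cell markers summed to 212 to 224 in Col 0, 287 to 338 in abi4-102 and 167 to 181 in vtc1. In the same order AT1G22690 had means of 170, 269 and 128, and FMA had means of 48.4, 45.8 and 43.9. The higher sum in abi4-102 thus came from AT1G22690 alone. The 1 measured phloem marker stood at 1048 to 1088, 1386 to 1515 and 885 to 969. The part of these shifts in the results was not tested, and in whole rosettes a change in the cells of a type and a change in RNA per cell cannot be told apart. The control level of an array, defined as its brightest Bacillus control probe set, was 15.2 to 19.8. By that measure 16 members were above the control level on all arrays, 3 (SEC5B, SEC15A and VPS2.2) on some, and 2 (VPS24.2 and SECA2) on none.

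Differences between genotypes are given on the log2(intensity + 1) scale with the standard error from 1 limma fit over all arrays. A gene was called at a Benjamini-Hochberg adjusted p under 0.05 over all 22746 probe sets, with no fold threshold. All 3 comparisons share arrays, so their counts are not independent. Among all probe sets 36.6% were called in vtc1 against Col 0 (18.1% higher and 18.5% lower), 34.9% in abi4-102 against Col 0 (18.8% higher and 16% lower) and 39.0% in vtc1 against abi4-102 (17.8% higher and 21.2% lower). Against that background, 11 of the 21 members were called in vtc1 against Col 0 (9 higher and 2 lower), 11 in abi4-102 against Col 0 (6 higher and 5 lower) and 12 in vtc1 against abi4-102 (8 higher and 4 lower). The members' median differences were 0.14, 0.03 and 0.14, beside medians of -0.03, -0.01 and -0.02 over all probe sets. Arrays did not overlap for 11, 12 and 14 members, where 41.9%, 43.5% and 42.0% of all probe sets did not. Of the 34 calls, 18 held under every alternative setting and with any 1 array left out.

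**Figure D1:**
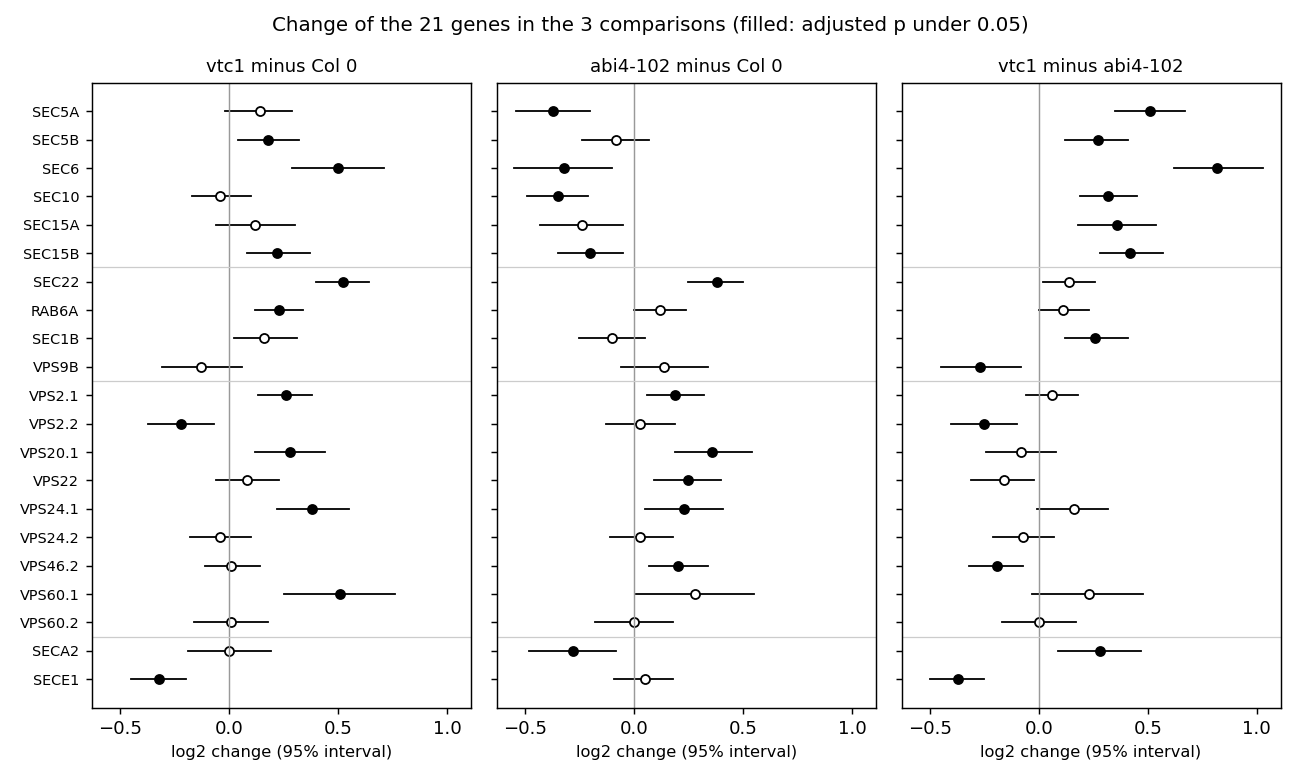
The log2 difference (horizontal axis) of each of the 21 members in vtc1 against Col 0, abi4-102 against Col 0 and vtc1 against abi4-102, one panel each, with bars for the 95% confidence interval and filled points for called genes. The 6 exocyst genes lie between -0.37 and -0.08 in abi4-102 and between 0.27 and 0.82 in vtc1 against abi4-102.

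Exocyst genes that changed against Col 0 fell in abi4-102 and rose in vtc1. In abi4-102 4 of the 6 subunits fell and none rose, with a median difference of -0.28. In vtc1 3 rose and none fell against Col 0, with a median of 0.16. Only 1 was called higher in vtc1 with array medians subtracted, with a replicate block or without Col 0 replicate 1. After quantile normalization 2 were, and after spike-in scaling 5. Of all 22746 probe sets 3410, 3764, 3537, 3930 and 10274 were called higher under these settings, in that order. Directly between the mutants all 6 were higher in vtc1, by 0.27 to 0.82 (median 0.39), and no array of vtc1 overlapped with one of abi4-102. The mean of the 6 differences from the Col 0 mean was -0.24, -0.24 and -0.30 on the abi4-102 arrays, 0.15, 0.25, 0.14 and 0.21 on the vtc1 arrays, and 0.06, -0.01 and -0.05 on the Col 0 arrays.

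SEC6 (AT1G71820), a core subunit of the exocyst, differed most between the mutants among the members. Its intensity was 150, 153 and 119 on the Col 0 arrays, 101, 119 and 116 on the abi4-102 arrays, and 210, 208, 170 and 208 on the vtc1 arrays. Every vtc1 array was above every array of the other genotypes, and the brightest abi4-102 array lay just below the dimmest Col 0 array, both 119 as rounded. The rise in vtc1 was 0.50 ± 0.10 (SE, limma adjusted p = 6.4e-04), and the fall in abi4-102 was -0.32 ± 0.10 (adjusted p = 0.023). Between the mutants SEC6 differed by 0.82 ± 0.10 (adjusted p = 6.4e-06), which is 1.77-fold. The fall in abi4-102 was no longer called without Col 0 replicate 1 (-0.27), Col 0 replicate 2 (-0.26) or abi4-102 replicate 1 (-0.25).

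SEC5 has 2 copies, and its protein joins the part of the complex that also holds SEC6. SEC5A (AT1G76850) stood at 241, 224 and 219 in Col 0, 186, 161 and 180 in abi4-102, and 235, 279, 255 and 234 in vtc1. All abi4-102 arrays were below all others, while those of vtc1 overlapped with Col 0. The fall in abi4-102 was -0.37 ± 0.08 (adjusted p = 0.0016), and the difference between the mutants was 0.51 ± 0.07 (adjusted p = 5.0e-05). SEC5B (AT1G21170) was dim, at 22.6, 20.6 and 22.1 in Col 0, 20.8, 22.2 and 18.5 in abi4-102, and 24.1, 25.1, 25.9 and 24.1 in vtc1. Its vtc1 arrays were the brightest of the series, and the other genotypes overlapped. The rise in vtc1 over Col 0 was 0.18 ± 0.07 (adjusted p = 0.045), a call that was lost when any 1 of the Col 0 or vtc1 arrays was left out (0.15 to 0.21). The difference from abi4-102 was 0.27 ± 0.07 (adjusted p = 0.0047).

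SEC10 (AT5G12370), a further core subunit, showed the fall in abi4-102 with little difference between vtc1 and Col 0. It stood at 239, 218 and 219 in Col 0, 183, 182 and 164 in abi4-102, and 218, 223, 222 and 216 in vtc1. Only the abi4-102 arrays stood apart. The fall was -0.35 ± 0.07 (adjusted p = 5.4e-04), and vtc1 differed from Col 0 by -0.04 (95% interval -0.17 to 0.10). Col 0 is known to carry a near-identical second copy of SEC10 beside it, and the probe set may read both.

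SEC15 links the complex to Rab GTPases on the vesicle and also has 2 copies. SEC15B (AT4G02350) stood at 119, 126 and 130 in Col 0, 119, 102 and 105 in abi4-102, and 137, 148, 147 and 152 in vtc1. Its vtc1 arrays were all highest, whereas 1 abi4-102 array equalled the dimmest Col 0 array to 3 digits and the groups overlapped. The rise in vtc1 was 0.22 ± 0.07 (adjusted p = 0.017) and the fall in abi4-102 was -0.20 ± 0.07 (adjusted p = 0.043). The fall was not called with 7 of the 10 arrays left out in turn (-0.20 to -0.15), namely Col 0 replicates 2 and 3, abi4-102 replicates 2 and 3 and vtc1 replicates 2, 3 and 4. The fall was also lost after spike-in scaling (-0.17), with only the 2 genotypes compared (-0.20) and with a replicate block (-0.20). The rise was not called without Col 0 replicate 1 (0.19). It was also lost with array medians subtracted (0.17), after quantile normalization (0.17) and with a replicate block (0.20). SEC15A (AT3G56640) was near the control level, at 26.2, 22.4 and 23.3 in Col 0, 19.4, 21.3 and 19.8 in abi4-102, and 24.8, 28.1, 22.7 and 29.4 in vtc1. Its arrays in abi4-102 were below all others, but the difference of -0.24 from Col 0 was not called (adjusted p = 0.0527). The difference between the mutants was 0.36 ± 0.08 (adjusted p = 0.0028).

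**Figure D2:**
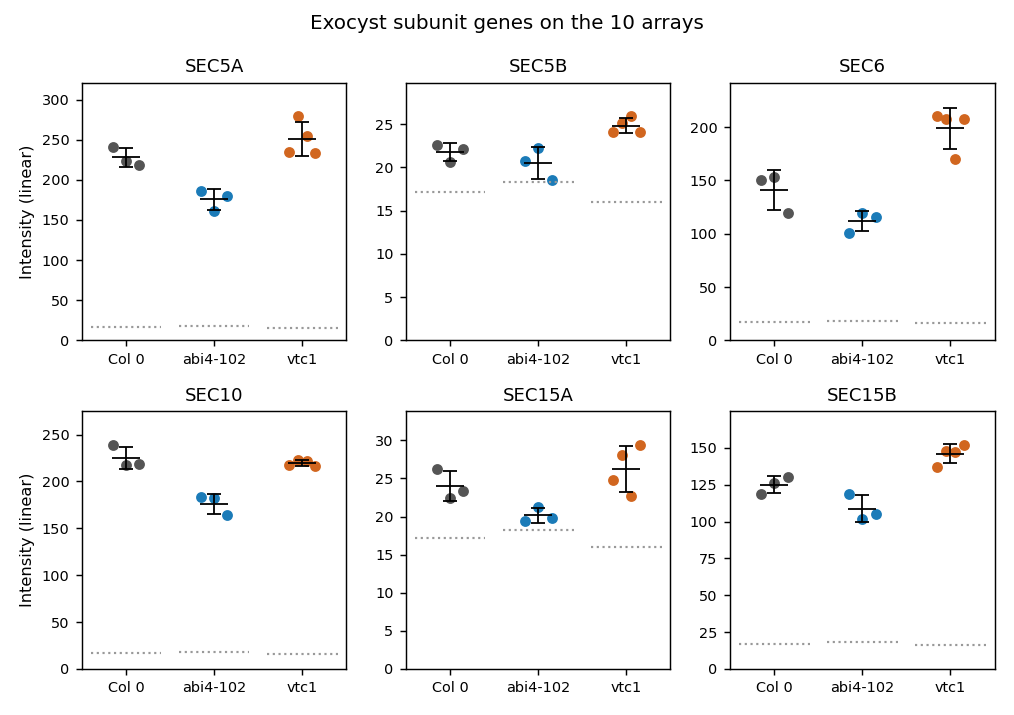
Intensity (linear, vertical axis from 0) of the 6 exocyst genes on each array (points) by genotype, with bars for the mean, whiskers for the SD over 3, 3 and 4 arrays, and a dotted line for the mean control level of the genotype. SEC6 reaches 170 to 210 in vtc1 against 101 to 119 in abi4-102, and SEC5B and SEC15A lie close to the dotted line.

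The exocyst genes were also among the longer genes, and differences between genotypes varied with gene length across the whole array. Lengths from first to last base, introns included, were 7561 bases for SEC6, 6814 for SEC5B, 6629 for SEC5A, 6063 for SEC10, 3266 for SEC15A and 2951 for SEC15B. Among 374 genes of at least 6000 bases 50.3% were called lower and 1.6% higher in abi4-102 against Col 0, and 64.2% were called higher and 1.34% lower in vtc1 against abi4-102. In vtc1 against Col 0 the shares were 26.2% higher and 8.29% lower. The median difference of these 374 genes was 0.06 in vtc1 against Col 0, -0.23 in abi4-102 against Col 0 and 0.33 between the mutants. The 4 exocyst genes of that length and SECA2 made up the 5 members in the class, of which 4 fell in abi4-102 and 5 were higher in vtc1 than in abi4-102. Both counts include SECA2, the longest member at 11566 bases, which was at the control level on all arrays. The 16 shorter members held 6 rises and 1 fall in abi4-102, and 3 higher and 4 lower between the mutants. Spearman's rho between length and difference was 0.12, -0.69 and 0.75 over the 21 members, SECA2 included, and 0.15, -0.22 and 0.34 over 13333 genes. These are descriptions across genes measured on the same arrays. The difference in log2 intensity between the 3' and 5' actin control probe sets, which moves with the completeness of the labelled cRNA, was 1.83 ± 0.235 (SD) in Col 0, 1.48 ± 0.108 in abi4-102 and 1.57 ± 0.0718 in vtc1 for the second pair on the array. For the first pair it was 2.02, 1.98 and 2.02. The same difference for GAPDH was 0.402 ± 0.078 (SD) in Col 0, 0.291 ± 0.208 in abi4-102 and 0.27 ± 0.0973 in vtc1 for the second pair. For the first GAPDH pair it was 1.27 ± 0.294, 0.94 ± 0.0416 and 0.855 ± 0.175. The part of gene length and of cRNA completeness in the exocyst differences was not tested.

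**Figure D3:**
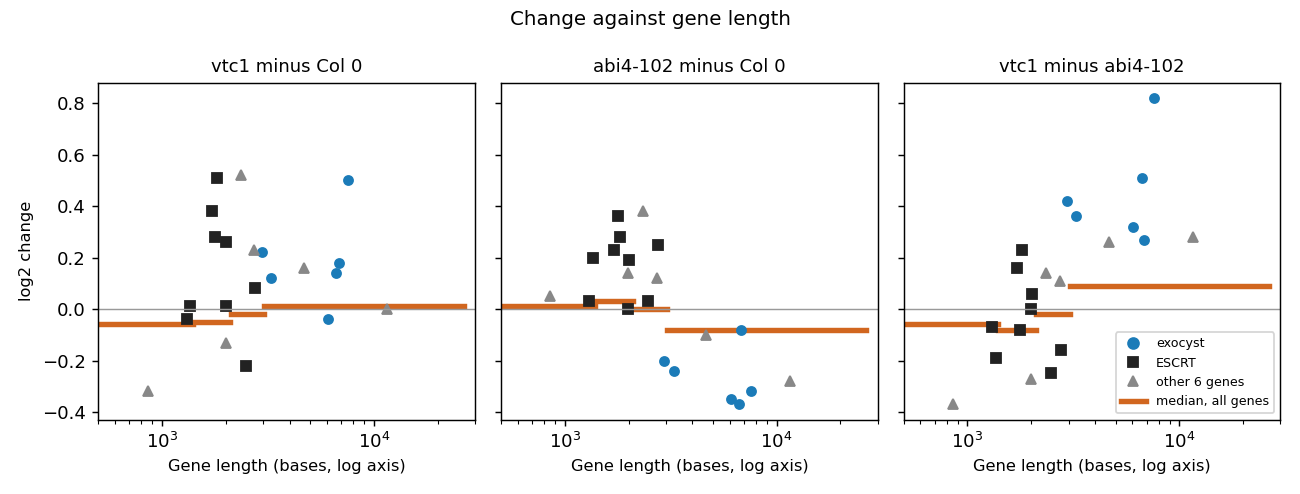
Log2 difference (vertical axis) of the 21 members against gene length in bases (horizontal log axis) in the 3 comparisons, marked by role, with horizontal lines for the median of all genes in each of 4 length classes of equal size (the shortest class is drawn from 500 bases). In vtc1 against abi4-102 the median of all genes is -0.06 in the shortest class and 0.09 in the longest. The exocyst genes lie above these lines at 0.27 to 0.82. The median of genes of at least 6000 bases, not drawn, is 0.33. SEC6 (0.82) and SEC5A (0.51) lie above that value, and SEC10 (0.32) and SEC5B (0.27) below it.

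ESCRT genes that changed in abi4-102 rose, and most of those that changed in vtc1 did as well. Of 9 genes, 4 rose and 1 fell in vtc1 against Col 0, while 5 rose and none fell in abi4-102. Between the mutants 2 were lower in vtc1 and none was higher. Medians were 0.08, 0.20 and -0.07. These genes were short, at 1305 to 2755 bases. Over all genes in the length classes up to 3040 bases, 16.8% to 25.1% were called higher and 6.86% to 15% lower in abi4-102 against Col 0. In vtc1 against Col 0 the shares were 8.21% to 17.5% and 18.2% to 20.5%. Between the mutants they were 2.96% to 14.2% and 19.9% to 31%. The part of gene length in the ESCRT differences was not tested. The rises in abi4-102 depended on the scaling of arrays: of the 5, VPS20.1 was called after quantile normalization, and VPS20.1 and VPS22 after scaling on spike-in probe sets, which also called VPS60.1 (0.31). Spike-in scaling also turned the comparison between the mutants, with 3 genes higher in vtc1 and none lower. Of all 22746 probe sets 8604 were then higher and 1317 lower.

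VPS20.1 (AT5G63880), which starts the ESCRT-III polymer on the endosome, rose in both mutants. It stood at 117, 112 and 105 in Col 0, 163, 141 and 129 in abi4-102, and 133, 142, 136 and 130 in vtc1. All mutant arrays were above all Col 0 arrays. The rises were 0.36 ± 0.08 in abi4-102 (adjusted p = 0.0022) and 0.28 ± 0.08 in vtc1 (adjusted p = 0.0079), and both held with any 1 array left out.

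VPS2.1 (AT2G06530) and VPS24.1 (AT5G22950) encode the subunits that close the ESCRT-III polymer, and both rose in the mutants. VPS2.1 stood at 272, 265 and 273 in Col 0, 313, 320 and 295 in abi4-102, and 335, 325, 312 and 319 in vtc1. VPS24.1 stood at 156, 147 and 125 in Col 0, 168, 160 and 172 in abi4-102, and 195, 200, 174 and 176 in vtc1. For both genes no mutant array overlapped with Col 0. In vtc1 the rises were 0.26 ± 0.06 for VPS2.1 (adjusted p = 0.0021) and 0.38 ± 0.08 for VPS24.1 (adjusted p = 9.3e-04). In abi4-102 they were 0.19 ± 0.06 (adjusted p = 0.021) and 0.23 ± 0.08 (adjusted p = 0.044). The call for VPS24.1 in abi4-102 was lost with 7 of the 10 arrays left out in turn (0.14 to 0.26), and that for VPS2.1 with 2 (0.17 to 0.18).

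VPS60.1 (AT3G10640), an accessory ESCRT-III protein, had the largest rise of the ESCRT genes in vtc1. It stood at 51.7, 47.5 and 51.5 in Col 0, 80.9, 48.8 and 58 in abi4-102, and 74.2, 76.7, 65.3 and 71.1 in vtc1. The abi4-102 arrays spread over the range of both other genotypes, with replicate 1 far above the other 2. The rise in vtc1 was 0.51 ± 0.12 (adjusted p = 0.0029), and the difference of 0.28 in abi4-102 was not called (adjusted p = 0.1). Without abi4-102 replicate 2 that difference was 0.44 and called, and over the arrays left out in turn it ran from 0.08 to 0.44. Its relative VPS60.2 (AT5G04850) showed no detectable difference, at 122 to 135 in Col 0, 112 to 142 in abi4-102 and 122 to 142 in vtc1 (95% interval in vtc1 -0.16 to 0.18).

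VPS22 (AT4G27040), a subunit of ESCRT-II, and VPS46.2 (AT1G73030), an ESCRT-III protein also known as CHMP1A, rose in abi4-102 and were not called in vtc1 against Col 0. VPS22 stood at 216, 200 and 209 in Col 0, 245, 273 and 226 in abi4-102, and 231, 218, 212 and 222 in vtc1, a rise of 0.25 ± 0.07 in abi4-102 (adjusted p = 0.015). VPS46.2 stood at 553, 581 and 544 in Col 0, 666, 631 and 636 in abi4-102, and 582, 535, 564 and 575 in vtc1. The abi4-102 arrays of VPS46.2 lay above all others, by 0.20 ± 0.06 over Col 0 (adjusted p = 0.017). Directly tested, VPS46.2 was lower in vtc1 than in abi4-102 by -0.19 ± 0.06 (adjusted p = 0.015), while VPS22 was not called there (-0.16, adjusted p = 0.071). This call of VPS46.2 was lost without abi4-102 replicate 1 (-0.17), after quantile normalization (-0.13) and after spike-in scaling (0.01). The rise of VPS22 was not called without Col 0 replicate 2 or abi4-102 replicate 2 (0.18 to 0.22), nor that of VPS46.2 without Col 0 replicate 3 or abi4-102 replicate 1 (0.18 for each).

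VPS2.2 (AT5G44560), a relative of VPS2.1, was dim and went the other way in vtc1. It stood at 18.8, 20.1 and 20 in Col 0, 21.6, 18.4 and 20.4 in abi4-102, and 17.2, 17.7, 17.2 and 15 in vtc1, close to the control level. All vtc1 arrays were lowest. The falls were -0.22 ± 0.07 from Col 0 (adjusted p = 0.025) and -0.25 ± 0.07 from abi4-102 (adjusted p = 0.0099). The fall from Col 0 was not called without Col 0 replicate 2 or 3 or vtc1 replicate 4 (-0.20 to -0.17), and the fall from abi4-102 not without abi4-102 replicate 1 (-0.20). VPS24.2 (AT3G45000) was at the control level on all arrays, at 5.34 to 6.26, and no fold is given.

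**Figure D4:**
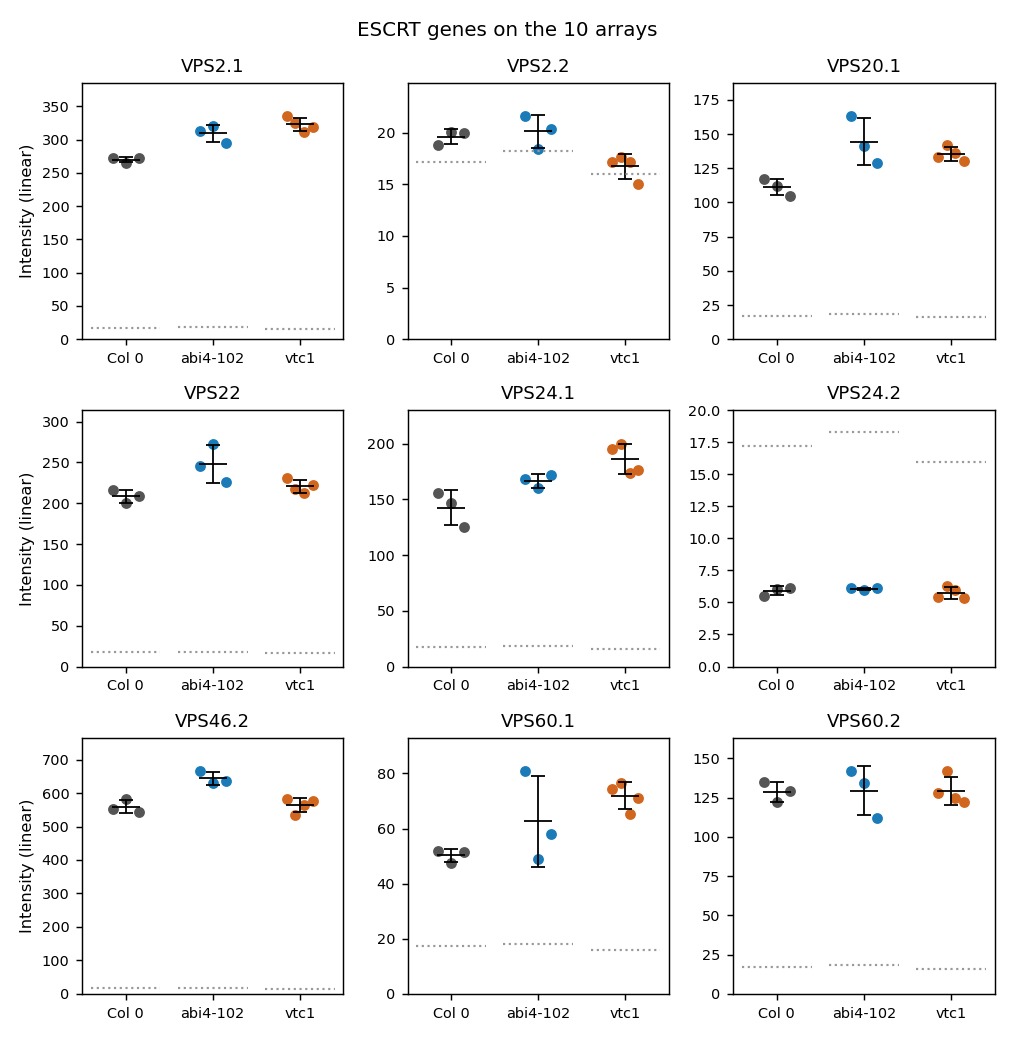
Intensity (linear, vertical axis from 0) of the 9 ESCRT genes on each array (points) by genotype, with bars for the mean, whiskers for the SD and a dotted line for the mean control level. VPS20.1, VPS2.1 and VPS24.1 are above Col 0 on every mutant array, and the abi4-102 arrays of VPS60.1 run from 48.8 to 80.9.

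Of the fusion and identity genes, SEC22 rose most clearly. SEC22 (AT1G11890) is the R-SNARE on vesicles that move between the endoplasmic reticulum and the Golgi. It stood at 493, 492 and 483 in Col 0, 664, 623 and 620 in abi4-102, and 693, 715, 719 and 677 in vtc1. The 3 groups did not overlap, with Col 0 lowest and vtc1 highest. The rises were 0.52 ± 0.06 in vtc1 (1.43-fold, adjusted p = 1.9e-06) and 0.38 ± 0.06 in abi4-102 (1.3-fold, adjusted p = 1.5e-04), both called under every alternative. The mutants differed by 0.14 ± 0.06, which was not called (adjusted p = 0.06).

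RAB6A (AT2G44610), a Rab GTPase of the Golgi, followed the same order with smaller differences. It stood at 420, 428 and 438 in Col 0, 460, 473 and 463 in abi4-102, and 508, 500, 499 and 506 in vtc1, again without overlap. The rise in vtc1 was 0.23 ± 0.05 (adjusted p = 0.0028), and the difference of 0.12 in abi4-102 was not called (adjusted p = 0.13). SEC1B (AT4G12120) belongs to the Sec1/Munc18 proteins, which bind syntaxins and guide SNARE pairing. It stood at 59.2, 54 and 51.4 in Col 0, 50.9, 51.5 and 50.8 in abi4-102, and 64.7, 59.7, 56.8 and 65.3 in vtc1. The mutants differed from each other by 0.26 ± 0.07 (adjusted p = 0.0049), and neither was called against Col 0. VPS9B (AT5G09320) is a relative of VPS9A, the activator of endosomal Rab GTPases, and stood at 63.2, 67.4 and 58.4 in Col 0, 65.4, 77.7 and 65.9 in abi4-102, and 51, 64.9, 60.4 and 54.5 in vtc1. It was lower in vtc1 than in abi4-102 by -0.27 ± 0.09 (adjusted p = 0.022), a call lost without abi4-102 replicate 2 or vtc1 replicate 1 or 4 (-0.24 to -0.19).

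SECE1 (AT4G14870), a membrane subunit of the plastid Sec translocase, fell in vtc1. It stood at 377, 345 and 387 in Col 0, 378, 381 and 387 in abi4-102, and 307, 288, 291 and 293 in vtc1. All vtc1 arrays were below all others, and the other genotypes overlapped. The falls were -0.32 ± 0.06 from Col 0 (adjusted p = 3.6e-04) and -0.37 ± 0.06 from abi4-102 (adjusted p = 1.1e-04), but neither was called after spike-in scaling (-0.09 and -0.17). SECA2 (AT1G21650) encodes the motor of a second such translocase and was at the control level on all arrays, at 8.66 to 13.5. Its calls of -0.28 in abi4-102 (adjusted p = 0.029) and 0.28 between the mutants (adjusted p = 0.018) therefore carry no fold, and without VPS24.2 and SECA2 4 members were called lower in abi4-102 and 7 higher between the mutants.

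**Figure D5:**
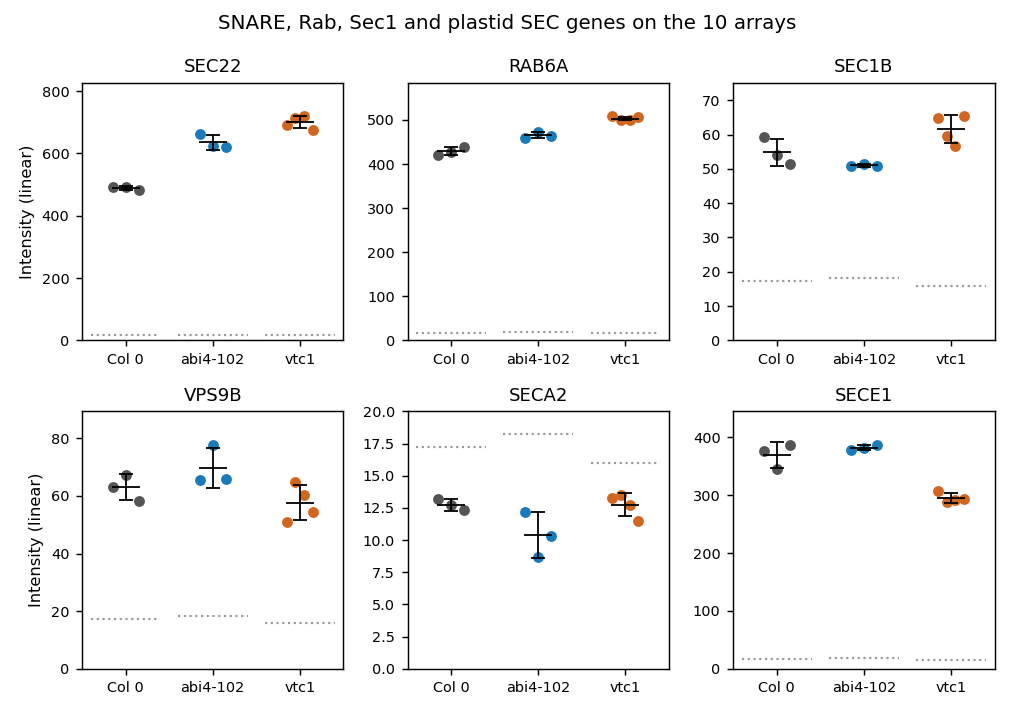
Intensity (linear, vertical axis from 0) of SEC22, RAB6A, SEC1B, VPS9B, SECE1 and SECA2 on each array (points) by genotype, with bars for the mean, whiskers for the SD and a dotted line for the mean control level. SEC22 runs from 483 to 493 in Col 0 and from 677 to 719 in vtc1, and SECE1 from 345 to 387 and from 288 to 307.

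Several members are copies of 1 gene. Whether the log2 ratio of the copies differed between genotypes was tested for 4 pairs in 3 comparisons with two-sided exact permutation tests, which cannot go below p = 0.0571 with 4 against 3 arrays or 0.1 with 3 against 3. In vtc1 against Col 0 the ratio was 0.50 higher for VPS60.1 over VPS60.2 and 0.47 higher for VPS2.1 over VPS2.2, each without overlap and at the smallest exact p of 0.0571. In abi4-102 the ratio of SEC5A to SEC5B was lower by -0.29 (exact p = 0.1, without overlap). SEC15A and SEC15B differed in their changes by -0.10 to -0.04 (exact p of 0.571 to 0.9). After adjustment over the 12 comparisons no value was below 0.171, so none passed. VPS24.1 and VPS24.2 were left out, because VPS24.2 was at the control level on all arrays. VPS2.2, SEC5B and SEC15A were dim, and the part of low intensity in their differences was not tested.

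Other genes of the pathway came from 7 lists chosen by function. Few of their listed names had a probe set of their own: 3 of 33 for other SNAREs and their regulators, none of 48 for coats and ARF GTPases, 5 of 43 for clathrin, adaptors and dynamins, 4 of 39 for tethers and the Golgi matrix, 6 of 29 for vacuolar sorting, retromer and further ESCRT genes, 10 of 31 for Rab regulators and 7 of 43 for translocation and folding in the endoplasmic reticulum.

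Among the tethers, 1 rose and 1 fell in vtc1, 3 fell and none rose in abi4-102, and 3 were higher and none lower in vtc1 than in abi4-102. EXO84B, a further exocyst subunit, had means of 197 in Col 0, 170 in abi4-102 and 226 in vtc1, with differences of 0.20 in vtc1 (adjusted p = 0.03), -0.21 in abi4-102 (adjusted p = 0.031) and 0.41 between the mutants (adjusted p = 1.5e-04). CLUB, a subunit of the TRAPP II tether, fell by 0.36 on the log2 scale in abi4-102 (adjusted p = 7.9e-04). ATGRIP, a Golgi golgin, fell in both, by 0.90 in abi4-102 (adjusted p = 5.3e-07) and 0.36 in vtc1 (adjusted p = 0.0016). These 3 genes span 4671, 8086 and 5463 bases. KEU, the Sec1/Munc18 protein KEULE needed for cell plate fusion, was the only called gene of the SNARE list, at 0.30 in vtc1 (adjusted p = 0.0089), -0.36 in abi4-102 (adjusted p = 0.0038) and 0.66 between the mutants (adjusted p = 1.0e-05). It spans 5623 bases.

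Of the clathrin list, 1 gene rose in vtc1, 1 fell in abi4-102 and 2 were higher in vtc1 than in abi4-102. AT5G46630, the medium subunit of the AP2 adaptor that selects cargo for endocytosis, rose by 0.42 ± 0.06 in vtc1 (adjusted p = 2.9e-05). TPLATE, of the adaptor complex named for it, fell by 0.30 in abi4-102 (adjusted p = 0.036). AT5G46630 spans 3218 bases and TPLATE 4783. Of the vacuolar list, 2 rose and 2 fell in vtc1, 2 fell in abi4-102 and 2 were higher in vtc1 than in abi4-102. The rises in vtc1 were those of further ESCRT genes, 0.38 ± 0.06 for SNF7.1 (adjusted p = 1.4e-04), the main ESCRT-III filament protein, and 0.29 ± 0.06 for ELC (adjusted p = 0.0022), an ESCRT-I subunit that binds ubiquitin. The falls were those of AT1G16020 and AT2G28390, listed as CCZ1A and MON1, which together activate the late endosomal Rab GTPases. AT1G16020 fell by 0.21 in vtc1 (adjusted p = 0.027) and by 0.33 in abi4-102 (adjusted p = 0.0023), and AT2G28390 by 0.21 (adjusted p = 0.011) and 0.19 (adjusted p = 0.032).

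All 10 measured Rab regulators were PRA1 proteins, small membrane proteins that bind Rab GTPases. In vtc1 2 rose and 4 fell, in abi4-102 3 rose and none fell, and 1 was higher and 7 were lower in vtc1 than in abi4-102. PRA1.F1 fell most in vtc1, by 0.69 ± 0.08 on the log2 scale (adjusted p = 5.0e-06), and PRA8 fell by 0.36 ± 0.07 (adjusted p = 5.0e-04). PRA1.A1 rose by 0.31 in vtc1 (adjusted p = 3.5e-04) and by 0.43 in abi4-102 (adjusted p = 4.7e-05). PRA1.B1 rose by 0.32 ± 0.07 in vtc1 (adjusted p = 0.0016). These 10 genes were short, at 803 to 2972 bases. They fall in the same length classes as the ESCRT genes, for which the shares over all genes are given above.

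All 7 measured genes of translocation and folding in the endoplasmic reticulum rose in vtc1 and were higher there than in abi4-102, while 2 rose in abi4-102. The largest rises in vtc1 were 1.44 for ATERDJ3B, a lumenal J protein, 1.14 for the calreticulin CRT1b and 0.40 for BZIP28, together with BZIP60 (mean intensity 763 against 357 in Col 0). The last 2 are transcription factors of the unfolded protein response. ATERDJ3B (0.59) and BZIP60 (0.92) were those that rose in abi4-102. ATERDJ2A and ATERDJ2B, membrane J proteins that couple the translocon to the chaperone BiP and were singled out after their values were seen, rose in vtc1 by 0.22 (adjusted p = 0.0496) and 0.34 (adjusted p = 0.0023). In abi4-102 they differed from Col 0 by -0.16 and -0.07, which were not called (adjusted p of 0.18 and 0.56).

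Another 10 genes carry one of the symbol stems only in a synonym, a list formed after the members' values were seen, and 3 of them (KEU, SNF7.1 and SNF7.2) are counted in the lists above. Of the 7 others, 4 rose and none fell in vtc1, 2 rose and 1 fell in abi4-102, and 2 were higher and 1 lower in vtc1 than in abi4-102. AT3G63460, with the synonym SEC31B for an outer coat subunit of COPII vesicles, rose by 0.59 in vtc1 (adjusted p = 1.5e-06), fell by 0.26 in abi4-102 (adjusted p = 0.0071) and was 0.85 higher in vtc1 than in abi4-102. AT3G63460 spans 6752 bases, in the class of at least 6000 bases whose shares over all genes are given above. The part of gene length in its differences was not tested. ARA6, the plant-type endosomal GTPase RABF1, rose by 0.39 in vtc1 and 0.54 in abi4-102. AT2G36680, an ESCRT-I gene named VPS37-2, rose by 0.28 and 0.45, and AT5G04920, the ESCRT-II gene VPS36, by 0.35 in vtc1, with a difference of 0.05 in abi4-102 that was not called.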

How the data were processed

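The authors deposited a table of linear intensity per probe set for 10 single-colour arrays; the summarisation of probes and the scaling of arrays are not given in these sources. Setting aside 64 control probe sets left 22746, of which 13513 carried 1 gene in the platform annotation, 503 several and 8730 none named in the table used. Symbols were updated through a TAIR10.1 gene table (13436 matched). Genotypes came from the labels.

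Intensities were taken as log2(value + 1) with no further scaling, and genotype was fitted to all arrays (limma 3.58.1, R 4.3.3, lmFit and eBayes, two-sided) with Benjamini-Hochberg adjustment. The model was tested on simulated data. By rule every member could be named, and array values were due for the 5 largest called changes each way per comparison and 2 per role. They are given for more members here. From each pathway list up to 4 called genes with the largest change against Col 0 were named. The members and lists were chosen with earlier results of these data known. Alternatives were array medians, quantile normalization, spike-in scaling, pseudocount 16, a filter on low values, only the compared genotypes, a replicate block, a trended robust fit and leaving out each array. The number of arrays limits the precision. No sequences were used here.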

Additional observations from a re-analysis of the deposited data

Results flagged for a closer look

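SEC6 on vtc1 replicate 3 (intensity 170) stood apart from the other 3 vtc1 arrays (208 to 210). The gap was 0.946 of the range, above Dixon's critical value for 4 samples. Among the 21 members tested this way about 1 in 20 groups would pass by chance. Without that array SEC6 remained called in all 3 comparisons.

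SEC6 and SEC15B were called in opposite directions in the mutants against the shared Col 0 arrays. For SEC15B the rise in vtc1 was lost under 4 alternatives and the fall in abi4-102 under 10. For SEC6 the fall was lost under 3 and the rise under none. The direct difference of vtc1 from abi4-102 was 0.82 for SEC6 and 0.42 for SEC15B (limma adjusted p = 6.4e-06 and 1.2e-04), with the 4 vtc1 arrays above the 3 abi4-102 arrays for both.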

How the results depend on the processing

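The 6 exocyst genes were higher in vtc1 than in abi4-102 and called under every setting and with any 1 array left out. Spike-in scaling, which puts the median of all probe sets at 0.21 in vtc1 against Col 0, 0.03 in abi4-102 and 0.18 between the mutants, changed the counts most. It gave 16 members higher and 0 lower in vtc1 against Col 0, 3 lower in abi4-102, and 13 higher and 0 lower between the mutants. Of all 22746 probe sets it called 10274 higher and 1217 lower in vtc1 against Col 0. In abi4-102 against Col 0 it called 2273 lower, and between the mutants 8604 higher and 1317 lower. Quantile normalization gave 2 higher in abi4-102 and 1 lower in vtc1, beside 3854 and 4264 of all probe sets. A trended robust fit also gave 1 lower in vtc1, beside 4286 of all probe sets. With 1 array left out, counts in vtc1 ran from 8 to 9 higher and 1 to 2 lower. In abi4-102 they ran from 3 to 6 higher and 3 to 5 lower, and between the mutants from 7 to 10 higher and 2 to 5 lower. Over all probe sets the counts in vtc1 then ran from 3537 to 4239 higher and 3621 to 4378 lower. Those in abi4-102 ran from 3777 to 4280 and 3068 to 3645, and those between the mutants from 3528 to 4071 and 4100 to 4804. The replicate block gave 1 member lower in vtc1, beside 3650 of all probe sets. Deviation correlations were -0.05466 to 0.1005 for same-numbered arrays and -0.1453 to 0.07545 for differently numbered ones. Arrays correlated best with their own number in 8 of 18 cases. Whether the numbers pair the samples cannot be told from these values. Signs turned under spike-in scaling for VPS2.2 (0.02), VPS9B (0.11), SEC10 (0.20) and VPS24.2 (0.20) in vtc1 against Col 0, and for VPS20.1 (0.12), VPS22 (0.04), VPS24.2 (0.13) and VPS46.2 (0.01) between the mutants. With array medians subtracted they turned for VPS46.2 (-0.04), SECA2 (-0.05) and VPS60.2 (-0.05) in vtc1, and for VPS60.2 in abi4-102 (-0.01) and between the mutants (-0.04). After quantile normalization they turned for VPS60.2 in vtc1 (-0.04) and abi4-102 (-0.05) and for SECE1 in abi4-102 (-0.02). With 1 array left out, values passed 0 for VPS2.2 in abi4-102 (-0.01 to 0.09), VPS24.2 in abi4-102 (-0.01 to 0.06), SECE1 in abi4-102 (0.00 to 0.08), VPS20.1 between the mutants (-0.16 to 0.01), VPS46.2 (-0.01 to 0.04), SEC10 (-0.06 to 0.01) and SECA2 (-0.03 to 0.04) in vtc1, and VPS60.2 in vtc1 (-0.04 to 0.04), abi4-102 (-0.07 to 0.10) and between the mutants (-0.10 to 0.07). The cause of these changes was not tested. Over the single genes, 532 of 610 alternative values of called differences kept direction and call, 76 lost the call and 2 turned, and of 518 for uncalled differences 452 kept both, 35 gained a call and 31 turned. Each member had 1 probe set, so the choice of probe set and of platform symbols changed nothing. Intensities near the control level limit what can be read for SEC5B, SEC15A, VPS2.2, VPS24.2 and SECA2.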

Other observations

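A probe set shared by 2 genes, not necessarily both with these symbol stems, was left out of the members and is not named. It stood at 216, 192 and 198 in Col 0, 142, 120 and 148 in abi4-102, and 252, 198, 206 and 209 in vtc1. Its difference was -0.56 in abi4-102 (limma adjusted p = 2.2e-04), 0.65 between the mutants (adjusted p = 2.3e-05) and 0.09 in vtc1 against Col 0.

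Over all genes, the median difference in 4 classes of gene length of about equal size, from shortest to longest, was 0.01, 0.03, 0.00 and -0.08 in abi4-102 against Col 0 and -0.06, -0.08, -0.02 and 0.09 in vtc1 against abi4-102. In the longest class (3041 to 26499 bases) 28.1% of genes were called lower in abi4-102 and 35% higher in vtc1 than in abi4-102.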
